A study of Mus musculus with 2 samples.

Results

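The S100 genes encode small calcium-binding proteins, and 10 of them were followed here in mouse skin: S100a3, S100a4, S100a6, S100a8, S100a9, S100a10, S100a11, S100a13, S100a14 and S100a16. They were chosen by name, 1 probe each, from 41167 probes that are not controls. All 10 were measured, of 10454 genes or transcripts in all. Measured means that, on array 1, either colour of the probe was flagged as well above background. RNA came from the skin of 25-day-old Pla2g2f-Tg/+ mice, which carry a transgene for the secreted phospholipase A2 Pla2g2f, and of littermate controls, all with a C57BL/6 background. Each genotype's RNA was a pool of 4 mice, of which 500 ng of total RNA was labelled. On array 1 the transgenic pool carried Cy5 and the control pool Cy3, and on array 2 the dyes were exchanged. The sources used here do not give the promoter that drives the transgene. Separate pools for the 2 arrays are not named in the labels, so both count as 1 replicate. The difference between them is taken as technical spread, and there is no test across mice.

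S100 proteins mostly work as dimers that change shape when calcium enters their EF-hand loops and then bind other proteins. In skin, S100A8 and S100A9 form calprotectin, which is released as a danger signal (an alarmin) and withholds zinc and manganese from microbes. It is abundant in neutrophils and monocytes, and keratinocytes make it when wounded or inflamed. S100A3 is a cysteine-rich protein of the hair cuticle, the scale layer around the hair shaft. The remaining members are found in resting skin: S100A4 in fibroblasts and leukocytes, S100A6 and S100A10 in many cell types, S100A11, S100A14 and S100A16 in epithelia, and S100A13 in several tissues.

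The sequences of 3 probes show what the leading values rest on. The S100a8 probe is a 60-base stretch whose open reading frame holds a calcium-binding loop. The capitals mark 36 bases that encode a 12-residue EF-hand pattern, with aspartate first, glutamate last, and aspartate, asparagine or serine at places 3 and 5. Of 41167 probes with different sequences 0.0996% hold this pattern in an open frame, and of the 10 members only 1 does, S100a8. For S100a9 and S100a3 the first 30 bases are given, in lower case throughout. No other probe on the array shares a run of 15 bases with any of these 3 probes.
S100a8: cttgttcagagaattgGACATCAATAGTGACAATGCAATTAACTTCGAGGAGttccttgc
S100a9: ctgcccaaccaagtctaaagggaatggctt
S100a3: ccctttcaatctagacttgccaagttcttg
The array design places all 10 probes on mouse chromosome 3 of build mm8. The S100a8 probe lies at 90755783 to 90755842, the S100a9 probe at 90778590 to 90778649 on the opposite strand, and the S100a3 probe at 90688401 to 90688460. The exon or UTR in which each lies was not analysed here, since no annotation of mm8 was used.

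The alarmin pair was far higher in the transgenic pool, S100a3 was far lower, and the other 7 members lay between. By the size rule, which asks both arrays for a difference of 2-fold or more in 1 direction, 3 of 10 members were higher (S100a8, S100a9 and S100a4), 1 was lower (S100a3) and 6 did not pass. Among all measured genes 3.72% were higher by the rule and 1.68% lower, 5.40% in all. The median log2 ratio of transgenic over control was 0.36 over the 10 members and -0.0079 over all genes. The scale matters for the small values. In the median the 10 spike-in probes had a log2 ratio of 0.46, so centring on them lowers every ratio by that amount. On that scale 176 of all genes were higher and 457 lower, against 389 and 176 as deposited.

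**Figure D1:**
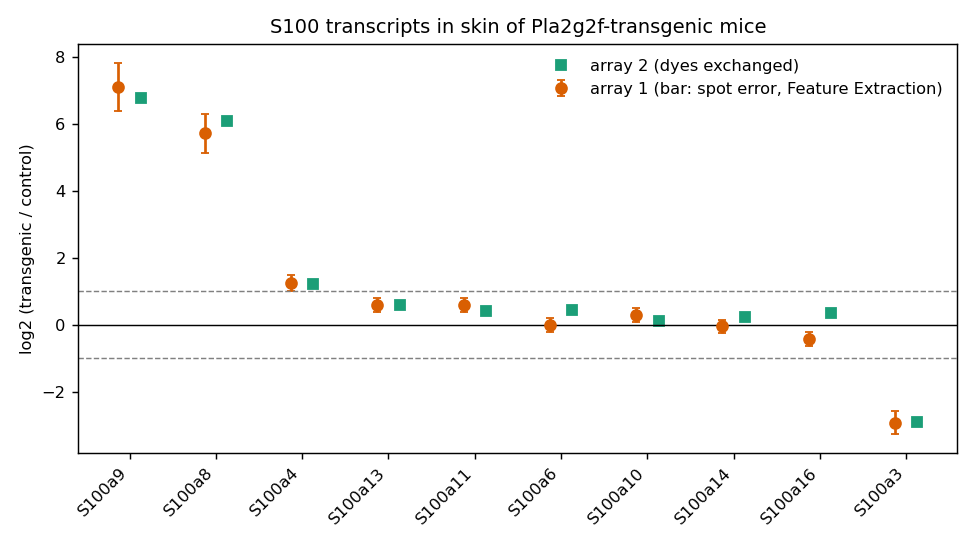
Log2 ratio of transgenic over control for each S100 member (y axis) on array 1 (circles, bars are the spot error of Feature Extraction) and on array 2 (squares), with dashed lines at a 2-fold difference. S100a9 and S100a8 lie above 5.7 on both arrays, S100a4 just above the upper line, S100a3 at about -2.9, and the other 6 between the lines.

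**Figure D2:**
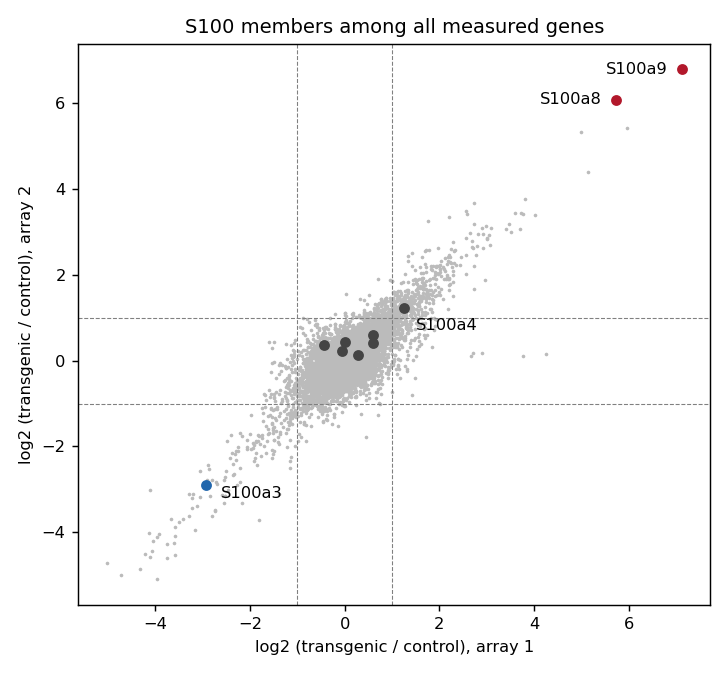
Log2 ratios of all 10454 measured genes (grey) on array 1 (x axis) against array 2 (y axis), with S100a8 and S100a9 in red, S100a3 in blue and the other S100 members in dark grey. Dashed lines mark a 2-fold difference, and 4 members lie beyond them the same way on both arrays.

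S100a9, the larger calprotectin subunit (NM_009114), had a processed signal of 301 in the control pool and 41886 in the transgenic pool on array 1, both well above background. Its log2 ratio was 7.12 on array 1, with a spot error of 0.72, and 6.78 on array 2. The mean of 6.95 is a 124-fold ratio, and the arrays differed by 0.34 log2 units. Among 9181 genes well above background in both channels it had the highest mean ratio. The control signal behind this ratio was small. Before dye normalisation its net signal in the control channel was 63.1, against a median of 55.1 over the probes of that channel, and 2480 in the transgenic channel. With normexp background correction and loess, array 1 gave a 32.5-fold ratio, and the mean with array 2 became 59.8-fold. The direction is therefore the same, and the size depends on how the dim control spot is corrected.

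S100a8, the partner subunit (NM_013650), had a processed signal of 5253 in the transgenic pool and 99.5 in the control pool, and the control spot was not well above background. The log2 ratio was 5.72 on array 1, with a spot error of 0.59, and 6.08 on array 2, with a mean of 5.90. Against 199, the smallest control signal that array 1 flagged as well above background, S100a8 was 26.4-fold higher. Some control spots without that flag had larger signals, such as 231 for Tgm3. Such folds against the floor of array 1 are therefore no lower bounds, and they are open to dye bias. Normexp and loess gave 5.88-fold on array 1, below 26.4-fold, and a mean of 20.0-fold over both arrays. So S100a8 was higher under each of these treatments of the background, and its fold is the least certain of the members. S100a9 exceeded S100a8 by 1.40 log2 units on array 1 and by 0.70 on array 2, but that gap depends on a control level of S100a8 that array 1 did not measure.

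**Figure D3:**
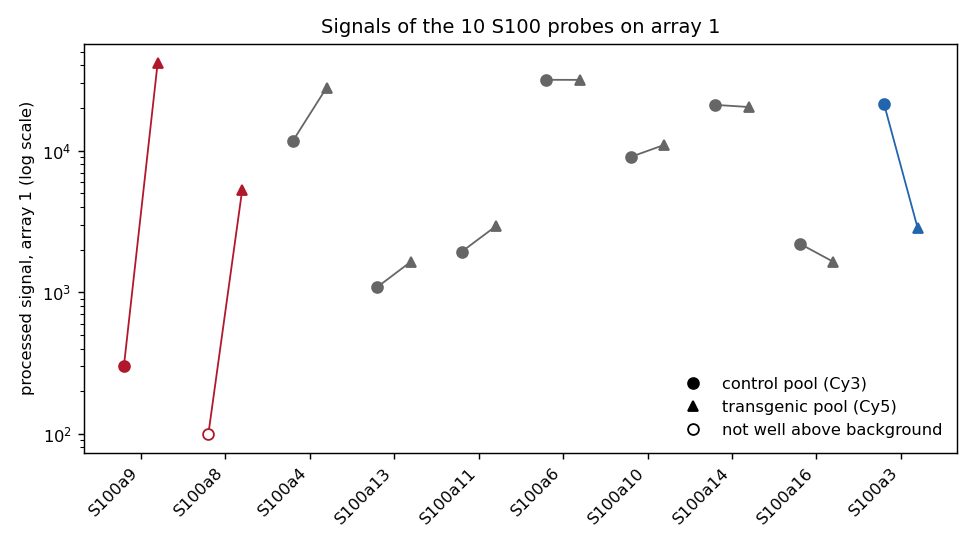
Processed signal on array 1 (y axis, log scale) of each S100 probe in the control pool (circles) and the transgenic pool (triangles), with open symbols for spots not well above background. The lines join the channels of 1 probe, and levels of different probes cannot be compared. Only the control spot of S100a8 is open, and the S100a9 control spot, at 301, is the next lowest.

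S100a3, the hair cuticle member (NM_011310), went the other way. Its processed signal on array 1 was 21431 in the control pool and 2821 in the transgenic pool. Array 1 gave a log2 ratio of -2.93, with a spot error of 0.34, and array 2 gave -2.89. The transgenic pool thus held 7.51-fold less in the mean, and the arrays differed by 0.032 log2 units. With normexp and loess array 1 gave -2.56, and the mean with array 2 became -2.73. Centred on the spike-ins the mean was -3.37, so S100a3 was lower under both. In pooled skin RNA, fewer cells of a type and less RNA per cell cannot be told apart.

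The alarmin pair and S100a3 were thus set apart in opposite directions. The mean log2 ratio of S100a8 and S100a9 exceeded that of S100a3 by 9.35 on array 1 and 9.33 on array 2. It exceeded the median of the 7 other members by 6.14 and 6.02. That median in turn exceeded S100a3 by 3.21 and 3.30. These differences do not change when an array is centred on another value. In the ratios averaged over both arrays the leads were 9.34 over S100a3 and 6.21 over the 7 other members. With normexp and loess for array 1 and array 2 left as deposited, these averages became 7.84 and 4.92. The change on array 1 alone is thus larger than these averages show. The close match of the pair's lead on the 2 arrays is partly a cancellation. From array 1 to array 2, S100a8 went from 5.72 to 6.08 and S100a9 from 7.12 to 6.78. The S100a8 part also rests on a control spot not well above background on array 1.

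S100a4 (NM_011311), also known as metastasin or fibroblast-specific protein and a partner of non-muscle myosin, was the only one of these 7 to pass the rule. Its processed signal was 11692 in the control pool and 27872 in the transgenic pool on array 1. Array 1 gave a log2 ratio of 1.25 and array 2 gave 1.21, 2.35-fold in the mean, and the arrays differed by 0.039. Centred on the spike-ins the mean was 0.77, and S100a4 no longer passed. Markers of 2 cell types known to hold S100A4 were measured beside it. Of 8 fibroblast markers none (0) passed. The median of these was 0.28, or -0.18 centred on the spike-ins, and Fbn1 had the largest mean ratio, 0.83. Of 6 measured macrophage and monocyte markers 3 were higher, with a median of 1.07. With spike-in centring 1 passed and the median was 0.61. The summed signal of these 6 was 11239 in the control pool and 26485 in the transgenic pool. Most of it came from Lyz2 alone, with 9424 and 22467, so the sums do not describe the list. The part of either cell type in the S100a4 ratio was not tested.

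The other 6 members did not pass the rule. S100a13 (NM_009113), which helps release FGF1 and interleukin-1 alpha from cells, had processed signals of 1087 and 1645 in the control and transgenic pools. Its log2 ratios of 0.60 and 0.61 differed by only 0.0084 between the arrays. The S100a13 probe shares a run of 15 bases with 1 other probe, for Golgb1. S100a11 (NM_016740), a partner of annexin A1, had signals of 1932 and 2912 and log2 ratios of 0.59 and 0.41. S100a10 (NM_009112), which has lost calcium binding and pairs with annexin A2, had signals of 9019 and 10986 and ratios of 0.28 and 0.13. These 3 and S100a4 lay above 0 on both arrays.

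For the remaining 3 members the arrays disagreed on the sign. S100a6 (NM_011313), or calcyclin, had signals of 31639 and 31596, with log2 ratios of -0.0020 on array 1 and 0.44 on array 2. S100a14 (NM_025393) had signals of 21048 and 20324, with ratios of -0.051 and 0.22. S100a16 (NM_026416) had signals of 2205 and 1639, with ratios of -0.43 and 0.36. The arrays differed by 0.79 for S100a16, at about the 95th percentile of all genes, which is also 0.79. Opposite signs on the arrays were found for 29.0% of all genes. No direction can be given for these 3 members.

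Centring on the spike-ins turned the mean ratios of S100a6, S100a10 and S100a14 below 0, to -0.24, -0.25 and -0.37. It brought S100a11 to 0.04 and S100a13 to 0.14, and S100a16, already at -0.034, to -0.49. Of these 6, only S100a13 kept its direction on both arrays under both scales. In the order of the mean ratios, from S100a9 and S100a8 through S100a4, S100a13, S100a11, S100a6, S100a10, S100a14 and S100a16 to S100a3, there are 9 neighbouring pairs. For 3 pairs the gap exceeded the difference between arrays and ran the same way on both: S100a8 over S100a4, S100a4 over S100a13 and S100a16 over S100a3. The order of S100a9 and S100a8 is not settled, since the control level of S100a8 was not measured. The 5 pairs from S100a13 to S100a16 could not be told apart.

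**Figure D4:**
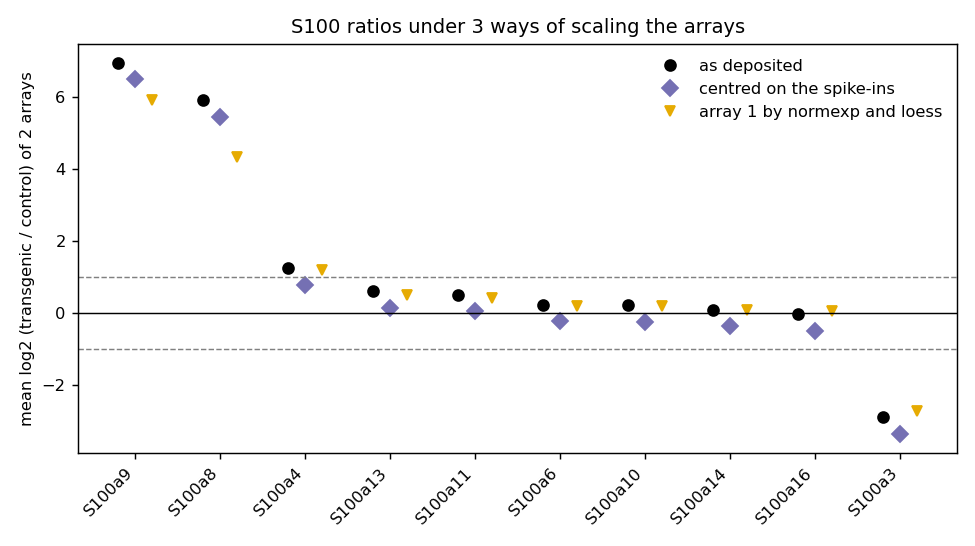
Mean log2 ratio of both arrays (y axis) for each S100 member with the arrays as deposited (circles), centred on the spike-ins (diamonds) and with array 1 by normexp and loess (triangles), and dashed lines at a 2-fold difference. S100a8, S100a9 and S100a3 stay beyond the lines in all 3 settings, S100a4 drops to 0.77 on the spike-ins, and the values near 0 change sign.

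For S100a11 a nearly identical probe could be read beside its own. A probe for the predicted transcript LOC670046, described in the array design as similar to S100a11, matches the S100a11 probe at 55 of 58 overlapping bases. The differences, with positions counted from 1 at the 5′ end of the S100a11 probe, are G11A, C58T and T59C. The stretches below cover bases 8 to 37 of the S100a11 probe and bases 6 to 35 of the other, and the capital marks the first difference.
S100a11: agcGtgccatgattctttcatccaaacttc
LOC670046: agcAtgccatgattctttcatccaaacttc
The LOC670046 probe gave log2 ratios of 0.58 and 0.41, against 0.59 and 0.41 for S100a11. The array design places the 2 probes at overlapping sites of chromosome 3, 93611499 to 93611558 for S100a11 and 93611501 to 93611559 for LOC670046. Transcripts of S100a11, and of a near copy if there is one, could reach both probes. These are therefore not separate measurements of S100a11, and like values were to be awaited.

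Other S100 genes were mostly not seen in this skin. Of 6 with a probe, 2 were measured and neither passed the rule. S100a1, best known from heart and skeletal muscle, had signals of 902 and 1126 and log2 ratios of 0.32 and 0.20. S100b, a gene of glia, melanocytes and Langerhans cells, had signals of 573 and 668 and ratios of 0.22 and -0.17, opposite in sign. S100a5, S100a7a, S100a7l2 and S100g were not well above background in either channel. S100a7a, the mouse relative of human psoriasin, had signals of 104 and 111.

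Genes that act with the alarmins were compared as fixed lists. Among 12 receptors and surface partners of S100A8 and S100A9, 7 were measured. The size rule called 2 higher, and the other 5 were not called. Their median log2 ratio was 0.26. Embigin, encoded by Emb, had log2 ratios of 1.29 and 1.32, and the scavenger receptor Cd36 had 1.11 and 1.23. Ly96, the co-receptor of TLR4, had a mean of 1.28, but its control spot was dim, and array 2 gave 0.87. Nptn, which encodes neuroplastin, had ratios of 0.61 and -0.09. Basigin, encoded by Bsg, lay at -0.22 in the mean, with opposite signs on the arrays. Tlr4 and Ager, the classic alarmin receptors, were not well above background in either channel. Centred on the spike-ins no gene (0) of this list passed, and the median turned to -0.20. Cd36 is also a gene of fat cells, and 6 of 7 measured adipocyte markers were higher in the same RNA, with a median of 1.43 and the largest mean, 2.08, for Cfd. On the spike-in scale 3 of them passed, with a median of 0.97. Their part in the Cd36 ratio was not tested.

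Of 23 cytokines and transcription factors known to induce the alarmin genes, 20 had a probe. Il36a, Il36b and Il36g were listed too but had none under these names. The array measured 11, of which 3 were higher by the rule. The median of the 11 was 0.57. All 11 measured genes encode transcription factors or their regulators. Nfkbiz, which encodes a nuclear cofactor of NF-kappaB, had signals of 359 and 1640 and log2 ratios of 2.19 and 1.90. Cebpd had ratios of 1.29 and 1.12. Fos, dim in the control channel, was 3.57-fold higher against the floor of array 1, with log2 ratios of 2.18 and 1.20. Cebpa reached a mean of 0.88, but its arrays gave 0.32 and 1.44. Stat3 lay at 0.77 and 0.80. Il17a, Il17f, Il22, Il1a, Il1b, Il6, Tnf and Osm were dim in both channels, so a difference in these cytokines was not detectable at this signal. The transcription factor gene Spi1 was dim in both channels too. Centred on the spike-ins 1 gene of the list still passed.

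The starts of the S100 genes were read for the binding motifs of such factors, because S100a8, S100a9 and S100a4 were higher together while their neighbour S100a3 was lower. RefSeq promoters of build GRCm38.p6 were found for 8 of 10 members, and the 250 bases before each start were searched on both strands. Of 32851 promoters, the C/EBP motif TTNNGNAAT stood in 10.2% of windows, the AP-1 motif TGANTCA in 6.75%, the STAT motif TTCNNNGAA in 7.02%, the NF-kappaB motif in 1.21%, the TATA box TATAAA in 12.4% and the CCAAT box in 33.8%. No 2 of the printed matches overlap. Capitals mark every match.
S100a8, chr3:90668821-90669070, plus strand: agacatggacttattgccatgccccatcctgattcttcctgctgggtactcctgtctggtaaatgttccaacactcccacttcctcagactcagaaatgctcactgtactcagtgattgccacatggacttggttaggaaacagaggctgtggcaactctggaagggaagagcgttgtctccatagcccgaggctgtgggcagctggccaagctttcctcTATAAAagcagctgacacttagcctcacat
S100a9, chr3:90695722-90695971, minus strand: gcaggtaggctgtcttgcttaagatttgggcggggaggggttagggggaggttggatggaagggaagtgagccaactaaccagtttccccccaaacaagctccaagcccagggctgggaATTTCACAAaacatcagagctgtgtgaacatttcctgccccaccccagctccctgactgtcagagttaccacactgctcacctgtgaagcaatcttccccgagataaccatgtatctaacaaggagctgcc
S100a4, chr3:90603520-90603769, plus strand: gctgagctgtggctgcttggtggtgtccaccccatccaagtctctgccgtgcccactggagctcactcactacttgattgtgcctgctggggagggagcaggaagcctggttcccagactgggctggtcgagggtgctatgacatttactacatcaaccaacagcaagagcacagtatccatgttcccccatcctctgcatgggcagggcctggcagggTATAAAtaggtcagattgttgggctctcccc
S100a3, chr3:90588313-90588562, plus strand: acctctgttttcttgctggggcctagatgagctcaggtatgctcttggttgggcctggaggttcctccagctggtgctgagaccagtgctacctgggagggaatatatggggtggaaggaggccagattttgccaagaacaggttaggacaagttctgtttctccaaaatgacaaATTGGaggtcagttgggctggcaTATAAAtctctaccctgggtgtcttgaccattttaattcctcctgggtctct
The S100a8 window held a TATA box 30 to 25 bases before the start and the S100a4 window one 31 to 26 bases before it. The S100a9 window held a C/EBP match 131 to 123 bases before its start. S100a3 has 4 starts in the table, and the window shown is the only one of them with a match, a TATA box 52 to 47 bases and a CCAAT match 75 to 71 bases before the start. Elsewhere, AP-1 matches stood in the S100a11 window (2 matches) and in 1 of 2 windows of S100a16, and a CCAAT match in that of S100a6. No STAT or NF-kappaB match (0) was found in any member's window. The alarmin pair shared no motif of the 6 searched, and a match describes letters only.

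Partners inside the cell were read next. Of 15 listed partners of S100 proteins 11 were measured and none (0) passed the rule. The median over these 11 was 0.18, and -0.28 centred on the spike-ins. Arrb1 had the largest mean, 0.68, followed by the annexins Anxa5 at 0.64, Anxa2 at 0.48 and Anxa6 at 0.37. Anxa2, the partner of S100a10, lay at 0.24 on array 1 and 0.72 on array 2. Anxa1, the partner of S100a11, lay at 0.07 and 0.11. Myh9, the myosin heavy chain bound by S100A4, had opposite signs of 0.06 and -0.45.

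For S100a3 the enzymes that modify it were listed. PADI3 turns arginines of S100A3 into citrulline in the hair cuticle. Padi3 had signals of 4521 in the control and 603 in the transgenic pool and log2 ratios of -2.91 and -2.79. Of the 4 measured genes of this list 2 were lower by the rule and 2 did not pass, and centred on the spike-ins Padi1 made it 3. Padi4, dim in the transgenic channel, was 2.34-fold lower on array 1, with a mean log2 ratio of -1.62. Padi1 lay at -0.58 and Tgm1 at -0.34. The S100 fused-type genes, which join an S100 domain to long repeats, went both ways. Tchh, which encodes trichohyalin of the inner root sheath, had a mean of -2.79. Rptn, which encodes repetin of the cornified layer, was 1.59-fold higher against the floor of array 1, with a mean of 2.15. Hrnr lay at 0.93 and Flg2 at -0.50, and neither passed.

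Genes nearest to S100a3 and S100a9 in the ratios of both arrays were named by distance on the log2 scale. For S100a3 they were Padi3 (distance 0.11), Tchh (0.17), the hair cuticle keratin Krt82 (0.21), Bhlha9 (0.23) and Gprc5d (0.26), the last 3 dim in the transgenic channel of array 1. S100a9, whose ratios were the highest of the members, had no such close neighbour among the genes searched. Its partner S100a8, left out as a member, lay 1.40 and 0.70 below it on the 2 arrays, nearer than any of these. The nearest genes searched were Sprr2d at 1.78, Stfa2 at 2.57, Stfa3 at 3.09, Serpinb3b at 4.48 and Cxcr6 at 4.59. All but Stfa3 were dim in the control channel, so their distances are uncertain. The likeness rests on 2 arrays of the same pools.

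Cell type markers were read beside the members. Of 11 keratinocyte markers 10 were well above background, which the labelled tissue should hold, and Krt1 and Krt14 were higher by the rule at means of 2.26 and 1.12. Krt14 did not pass centred on the spike-ins. The other 8 did not pass. Krt10 came close to the threshold, with log2 ratios of 0.99 and 0.98. Dsg1a, Dsp and Krt15 lay below 0 on both arrays, with means of -0.73, -0.17 and -0.15. The median of the 10 was 0.52, or 0.06 centred on the spike-ins. Their summed signal was 356948 in the control and 527991 in the transgenic pool. Most of it came from Lor and Krt5, so the sums do not describe the list. Hair cuticle and cortex markers were lower alongside S100a3: the rule called all 7 measured lower. Their mean log2 ratios ran from -3.64 (Krt31) to -2.14 (Krt85) around a median of -2.70. Their summed signal was 52656 in the control and 9270 in the transgenic pool. Most of it came from Krt35 alone, with 35834 and 6680, so these sums do not describe the list either. The transgenic spots of Krt31, Krt36, Krt82 and Krt86 were dim. The part of hair cuticle and cortex cells in the S100a3 ratio was not tested.

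Neutrophils are the richest known source of S100A8 and S100A9, and none (0) of 11 neutrophil markers with a probe was well above background in either channel. Mpo, Elane, Ngp, Camp, Retnlg, Cxcr2 and Csf3r were all among them. Signals of the 11 ran from 89.6 to 118 in the control pool and from 87.3 to 119 in the transgenic pool, and their sums were 1107 and 1148. The mean log2 ratios ran from -0.22 to 0.24. Ly6g was listed too but had no probe. A difference in these markers was not detectable at this signal, and the part of neutrophils in the alarmin ratios was not tested. Monocytes also carry both proteins, and of the 6 measured macrophage and monocyte markers 3 were higher by the rule. Ccr2 was 2.47-fold higher against the floor of array 1, Adgre1 had a mean log2 ratio of 1.31 and Lyz2 one of 1.23. Csf1r, Mrc1 and Cd163 lay between 0.80 and 0.90 and did not pass, and Itgam, Cd68 and Fcgr1 were not well above background. Only Ccr2 still passed when centred on the spike-ins. Their part in the alarmin ratios was not tested.

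**Figure D5:**
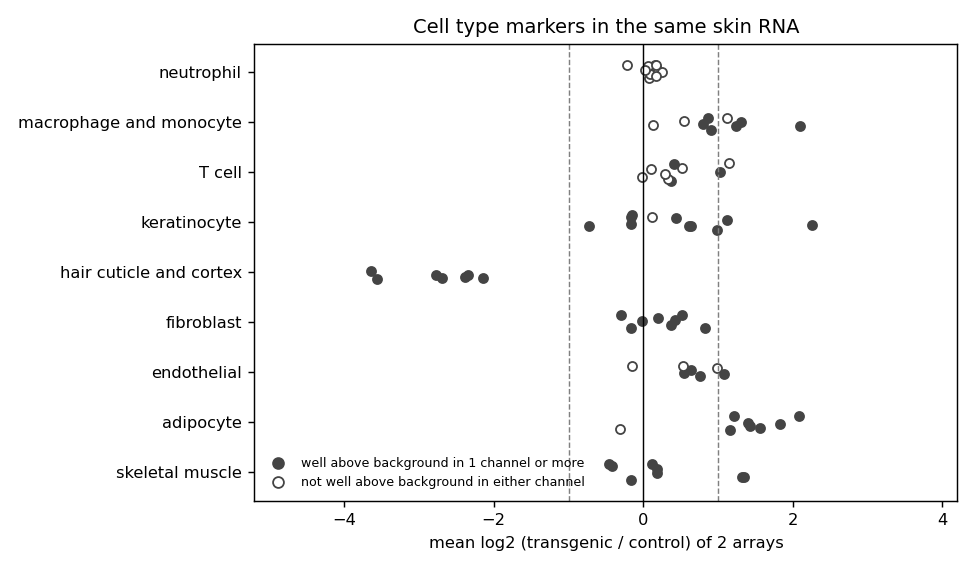
Mean log2 ratio of both arrays (x axis) for markers of 9 cell types (rows), with filled points for measured genes and open points for genes dim in both channels of array 1. All 11 neutrophil points are open and lie near 0, the 7 hair cuticle and cortex points lie below -2, and the macrophage and monocyte points lie above 0.

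Among the other lists T cell markers had 3 measured of 9 and none (0) passed. Of 4 measured endothelial markers 1 was higher, Vwf, and of 8 skeletal muscle markers 2 were higher, Myh1 and Myh2. The medians of the 3 lists were 0.41, 0.70 and 0.15. None (0) of these calls held on the spike-in scale, and the medians were -0.05, 0.24 and -0.31. Pla2g2f itself had log2 ratios of 0.54 and 0.34, below 2-fold, and the sources used here do not say whether its probe lies in the transgene.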

How the data were processed

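Skin RNA of both genotypes was compared on 2 Agilent 2-colour arrays. Scanner brightness was read with Agilent Feature Extraction, version 9.5.1.1, per the submitters' processing notes. Per the file headers, that software made spot intensity values by background subtraction, spatial detrending and linear plus LOWESS dye normalisation, with surrogates for dim values, which compress ratios near background. The deposited value table holds 1 log10 ratio column per array. For array 1 it equalled log10 of Cy5 over Cy3 at all 43790 features, within 1e-07. Scanner output of array 2 was not analysed here, so the scale of its column was not checked in this way. Its sign was turned because the labels exchange the dyes. The columns correlated at -0.579 over 41534 features without controls. The column medians were 0.0145 and -0.0243, and the sources used here name no later step. The deposited detection flags (0 or 1) of array 1, per the file headers, stood for both arrays.

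Ratios were converted to log2 of transgenic over control and the 2 arrays averaged. Control spots and 29 outlier spots were left out, spots of a probe were averaged, and probes dim in both channels of array 1 were dropped. Each gene was read from its brightest probe, by mean log signal. Saturation flags on array 1 marked 0 spots outside the controls. RefSeq names (assembly GRCm38.p6) were matched by accession (24370), symbol (6300) or synonym (2425), while 8072 probes stayed under the design's own name. The median net signal was 55.1 in Cy3 and 41.7 in Cy5 on array 1. Precision is limited by having only 2 arrays. A gene was called when at least 2-fold apart (log2 ratio of 1) the same way on each array. The labels name no separate pools for the arrays, so there is no p-value across mice. Each dye orientation had 1 array, so slide and scan could not be tested as batches. The size rule was run on simulated data, which does not show how it performs here. The simulated arrays differed less from each other than the real ones. Their noise was shuffled across dim and bright genes, and dye bias was not modelled. The alternatives were centring on the median gene or the spike-ins (both arrays shifted by the median of the spike-ins' means over both arrays, since their built-in ratios follow the dye), normexp background correction (offset 50) with loess for array 1 (limma 3.58.1, R 4.3.3), no filter on dim probes, a filter on both channels, the mean of all probes, and each array alone. The members and gene lists were chosen with earlier results of these data known. All 10 members are named, with up to 4 genes of each list by size of the mean log2 ratio and the called genes where these were 5 or fewer. A few further list genes were picked with their values known. For S100a9 and S100a3 the 5 genes nearest in the ratios of both arrays are named, among genes with a matched name other than the 10 members.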

Additional observations from a re-analysis of the deposited data

How the results depend on the processing

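S100a8, S100a9 and S100a3 kept their direction under each of the 8 alternatives in which they were measured. Most of these could hardly change them. With 1 probe per member, the mean of all probes and the filter settings left the ratios as they were. Centring on the median gene barely moved them. Spike-in centring and normexp with loess moved them most. Of 10 members 4 passed the size rule, 3 centred on the spike-ins (without S100a4) and 3 with both channels well above background (without S100a8), and 4 in the other settings. The lead of the alarmin pair over S100a3 was 9.34 and became 7.84 with normexp and loess for array 1. From single arrays it was 9.33 to 9.35, where opposite shifts of S100a8 and S100a9 between the arrays cancelled. The pair's lead over the 7 other members was 6.21, and became 4.92 with normexp and loess for array 1. Both figures use the median of these members' ratios averaged over the arrays, which was 0.22 as deposited. Single arrays had medians of their own, 0.28 and 0.41, and gave leads of 6.14 and 6.02. Neither lead could be computed with the filter on both channels, which leaves S100a8 out. Over all genes, 389 were higher and 176 lower, against 176 and 457 centred on the spike-ins, 107 and 56 with normexp and loess, and 243 and 86 with both channels. Signal limits S100a8, whose control spot was not well above background, and the genes dim in both channels. No paired analysis was possible because the arrays form 1 group and the pools were measured against each other on each array.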

Other observations

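Along chromosome 3 (mm8) the members fall in 2 stretches. From S100a1 to S100a9 (90597138 to 90778649) the array measured 9 genes, of which 8 are members and the other is S100a1. In this stretch S100a3, at -2.91, lies between S100a16 at -0.034 and S100a4 at 1.23, and S100a8 and S100a9 are its last genes. Between S100a9 and S100a11 lay 36 measured genes with other names, which include many of the cornified envelope, and 12 of these were higher, 2 lower and 22 did not pass, where over all genes 3.72% were higher and 1.68% lower. Centred on the spike-ins 11 were higher and 3 lower. The 2 lower were Prr9 at a mean log2 ratio of -3.22 and Tchh at -2.79. The Sprr2 and Lce1 genes there are near copies of one another, so their single values are uncertain. RefSeq's promoter windows of S100a1 and S100a13, which point away from each other, share 204 of 300 bases, and these genes had mean log2 ratios of 0.26 and 0.60. These values are a description, and whether position bears on any of them was not tested.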
